A study of Rattus norvegicus with 9 samples.

Results

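The genes described here are 10 members of the TGF-beta and BMP pathways of the rat, Tgfb1, Tgfb2, Tgfb3, Tgfbr1, Tgfbr2, Bmp2, Bmp4, Bmp6, Bmp7 and Smad7. They were found by their gene names among the 26115 gene names of an Agilent rat array of 1 colour, on which the Cy3 fluorescence of labelled kidney cRNA bound to a spot is the measure of a gene's RNA. The 10 genes had 13 probes of 30367 gene probes. Of these, 8 probes of 8 genes passed a filter on dim probes that left 15838 probes for the test. No probe of Tgfb2 or Bmp6 passed it, nor did 1 of the 2 probes of Tgfbr2.

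The arrays hold 9 kidneys of Fisher F344 rats from a model of kidney donation after circulatory death, all with 20 min. of warm ischaemia. The 5 NP kidneys were not perfused. The 4 MSC kidneys were perfused for 4 hrs at 4°C with Belzer solution (BS), a cold preservation fluid, supplemented with 3000000 mesenchymal stromal cells (MSC) expanded from the bone marrow of EGFP transgenic Sprague Dawley rats. Kidneys perfused with vesicles of MSC were not analysed here, nor any that the paper describes as perfused with BS alone. With NP read as not perfused, perfusion and MSC thus cannot be told apart in the comparison of MSC with NP. Per the methods, tissue of both groups was kept in RNAlater before the arrays. The labels contradict each other for the NP kidneys. In the treatment field they are not perfused, whereas their titles mention BS perfusion for 4 hrs. The name NP and the reading as not perfused are those of the paper. If the titles were right, every comparison of MSC with NP would set BS with MSC against BS alone. The age of the rats is not given in the sources used here.

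TGF-beta ligands are secreted in a latent form and, once released, bind a receptor of type II that recruits and phosphorylates one of type I, which in turn phosphorylates SMAD proteins that move to the nucleus. BMP ligands use related receptors and another set of SMADs, and in the kidney BMP7 is known as a product of tubular epithelium that opposes the fibrogenic actions of TGF-beta1. Smad7 is induced by the same signals and blocks the receptors, which makes it an inhibitory SMAD.

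The array reads each gene through probes of 60 bases. The probes of Bmp2 and Bmp4 are shown because they read related stretches of paralogous genes, so that cross-hybridisation between them cannot be told from expression. Capitals mark the bases that are identical in their best alignment without gaps, 36 of 46 aligned bases (78.3%).
Bmp2 A_44_P1013851: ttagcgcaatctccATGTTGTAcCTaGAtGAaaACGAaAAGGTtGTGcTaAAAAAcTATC
Bmp4 A_64_P100579: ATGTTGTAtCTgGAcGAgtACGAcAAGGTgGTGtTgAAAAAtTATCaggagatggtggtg
The files place the Bmp2 probe at chr3:121381127-121381186 on the plus strand of the rat build rn4, from base 1151 of the transcript, and the Bmp4 probe at chr15:22283362-22283421 on the minus strand, from base 1284. The probe of Bmp6, at chr17:32380203-32380262 on the minus strand, matched that of Bmp4 at 28 of 43 aligned bases (65.1%). Every other pair among the 13 probes had at most 27 identical bases.

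The probes of Tgfbr2 are shown because they gave the member difference with the smallest p and yet fell on different sides of the filter. Capitals mark a stop triplet at bases 39 to 41 of the second probe, in the reading frame of the first by their transcript positions, which are 364 bases apart.
Tgfbr2 A_64_P129314: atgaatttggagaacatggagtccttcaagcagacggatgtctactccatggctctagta
Tgfbr2 A_64_P129315: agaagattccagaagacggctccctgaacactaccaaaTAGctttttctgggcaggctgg
The first lies at chr8:120608686-120608745 and the second at chr8:120593700-120593759, both on the minus strand of rn4. The second probe runs over the end of the coding sequence, with 19 bases after the stop triplet.

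Quality varied between the arrays. MSC replicate 4 had the lowest share of gene spots well above background, the lowest median raw intensity and the most outlier flags (593). The normalized values of pairs of arrays correlated at Pearson's r between 0.965 and 0.997. Between 65.6% and 74.3% of the 58717 gene spots of an array were well above background, gene spots had a median raw intensity between 577 and 917, negative controls one between 217 and 237, and 0 gene spots were saturated. On slide 1 were 3 NP kidneys (replicates 1, 2 and 3) and 2 MSC kidneys (replicates 1 and 2), and on slide 2 the other kidneys. The kidney label was checked against marker lists, and all 6 markers of the proximal tubule and all 4 of the thick ascending limb passed the filter. A marker level below is the list's mean log2 intensity on an array, each gene being centred at 0 over the 9 arrays beforehand.

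None of the 8 member probes passed the threshold used for a call, a fold change over 1.5 at an FDR under 0.05. No other probe did, in either direction, and the share called was 0% of 15838 probes. The paper reported Tmem52b and Calb1 as higher in MSC-treated kidneys at this threshold. It collapsed probes to genes, and its filter can be read in other ways. With 1 probe per gene the call count here was also 0, and the cause of the difference was not tested. The smallest FDR of all probes was 0.104. At an unadjusted limma p under 0.05 there was 1 member probe of 8 (12.5%), that of Tgfbr2, against 11.6% of all probes, so that the members stood near the background. It was lower in MSC samples, as were 5.13% of all probes at this p, while 6.49% were higher. The median log2 fold change of the 8 probes was -0.06, against 0.00 (-0.00484) over all probes, and 7 of the 8 were below 0, as were 51.2% of all probes. No member had all MSC samples below all NP samples, a pattern seen in 2.14% of all probes, or all of them above, seen in 3.11%. Since each array holds RNA of whole kidney tissue, fewer cells of a type and less RNA per cell cannot be told apart in any of these values.

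**Figure D1:**
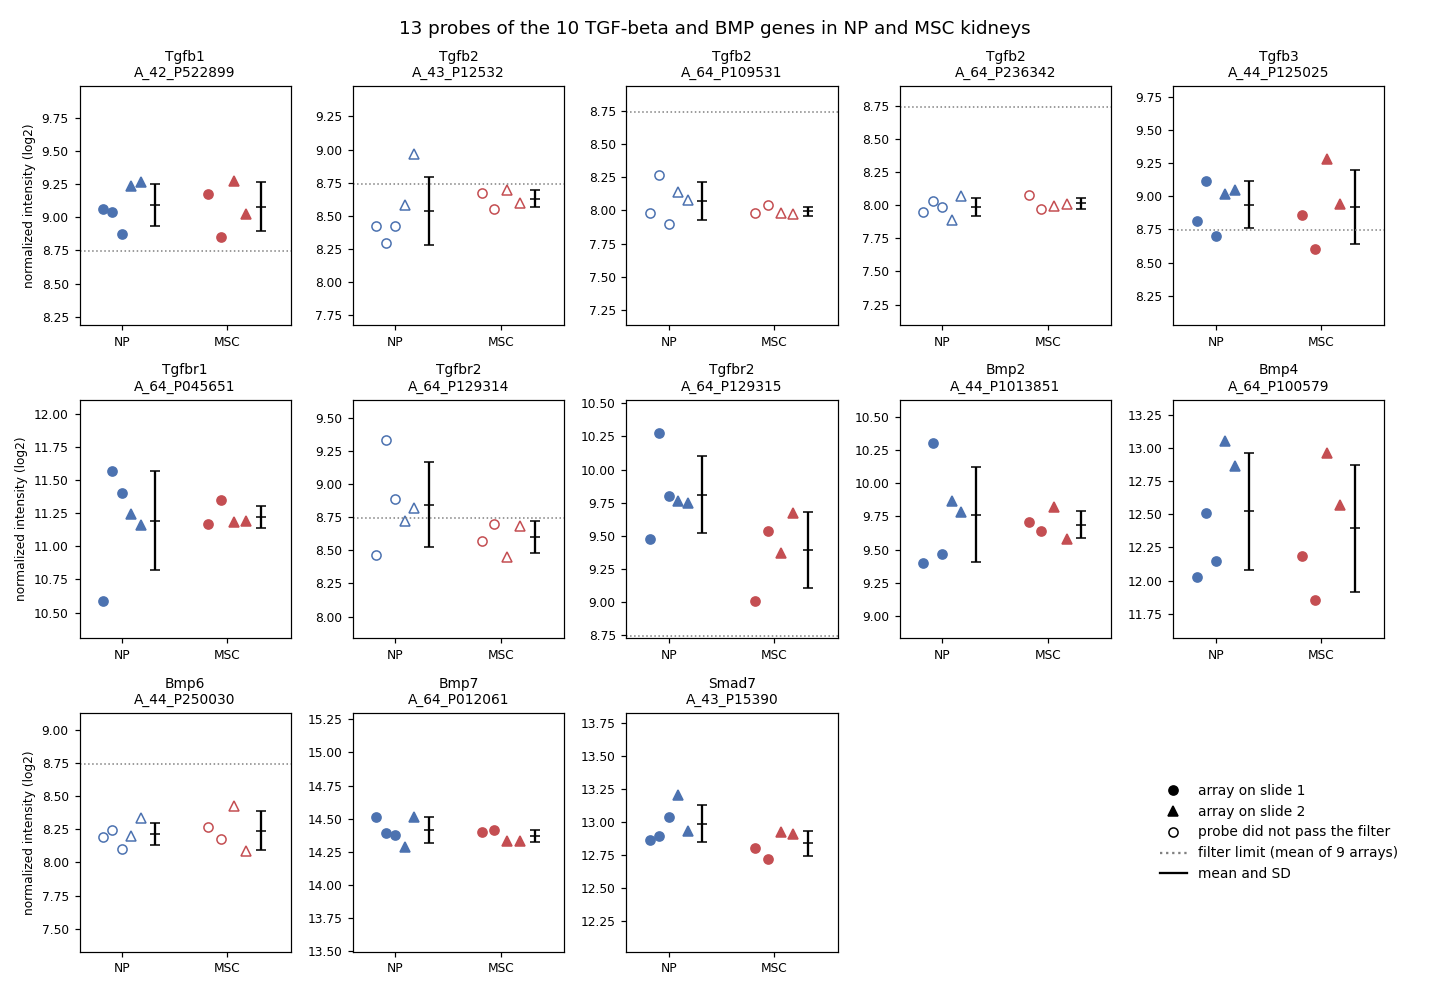
Each panel plots the normalized log2 intensity of 1 member probe on the 5 NP arrays (blue) and the 4 MSC arrays (red), with circles for slide 1, triangles for slide 2, open symbols for probes that did not pass the filter, a black bar for the mean and SD of the group, and a dotted line at the mean filter limit where it lies within the panel. The groups overlapped in every panel, the second Tgfbr2 probe had 2 MSC samples below all NP samples, and every panel spans 1.8 on the log2 scale.

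Among the TGF-beta ligands, Tgfb1, the isoform best known for renal fibrosis, did not differ between the groups beyond their spread. Its probe A_42_P522899, at chr1:80910123-80910182 on the plus strand and printed on 10 spots of each array, had log2 intensities of 9.06, 9.04, 8.87, 9.23 and 9.26 in NP replicates 1 to 5 and of 9.17, 8.85, 9.28 and 9.02 in MSC replicates 1 to 4. The lowest and the highest of the 9 samples were both MSC samples. The means were 9.10 ± 0.16 (SD, n = 5) in NP and 9.08 ± 0.19 (SD, n = 4) in MSC samples. The log2 fold change of MSC over NP was -0.02 (standard error 0.11), with a 95% interval from -0.27 to 0.24, an FDR of 0.969 from limma and an exact two-sided permutation p of 0.873. On the linear scale the interval reaches from 1.20-fold higher in NP to 1.18-fold higher in MSC samples.

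Tgfb3, the third isoform of the ligand, was read by probe A_44_P125025 at chr6:110173856-110173915 on the minus strand. Its log2 intensities were 8.81, 9.12, 8.70, 9.01 and 9.05 in NP replicates 1 to 5 and 8.86, 8.61, 9.28 and 8.94 in MSC replicates 1 to 4. The MSC samples spanned the whole range of the NP samples. The probe lay near the filter limit of 8.71 to 8.78 and was above it on 7 of 9 arrays. The log2 fold change was -0.02 (standard error 0.14, 95% interval -0.33 to 0.30), with an FDR of 0.973 from limma and an exact permutation p of 0.921. Within slide 1 the difference of MSC minus NP was -0.14, and within slide 2 it was 0.08.

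Tgfb2, the second isoform, was dim on its 3 probes, which the files place on chromosome 13. Probe A_43_P12532 had log2 intensities of 8.43, 8.30, 8.42, 8.58 and 8.96 in NP replicates 1 to 5 and of 8.67, 8.55, 8.70 and 8.60 in MSC replicates 1 to 4. Of these only NP replicate 5 was above the filter limit, although 3 NP and 4 MSC arrays were well above background by the image software. Probe A_64_P109531 was well above background on 2 NP arrays and on 0 of 4 MSC arrays, with values of 7.98, 8.27, 7.90, 8.14 and 8.08 in NP and 7.98, 8.04, 7.98 and 7.97 in MSC samples. The MSC mean of this probe is only a bound, and the NP mean of 8.07 was not above the level of 8.11 at which a probe could be told from background on the MSC arrays, so that no fold is given. Probe A_64_P236342 was not well above background on any array, with 7.89 to 8.07 in NP and 7.97 to 8.08 in MSC samples. In a limma fit without the filter, the difference of the first probe was 0.09 (standard error 0.12, FDR 0.877).

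Of the receptors, the type II receptor Tgfbr2, which binds the ligand first, was lower in MSC samples at an unadjusted p only. Probe A_64_P129315 had log2 intensities of 9.47, 10.27, 9.80, 9.76 and 9.75 in NP replicates 1 to 5 and of 9.01, 9.54, 9.37 and 9.67 in MSC replicates 1 to 4. All 4 MSC samples were below the NP mean of 9.81 ± 0.29 (SD, n = 5), but only MSC replicates 1 and 3 were below all NP samples, with NP replicate 1 lying among the MSC samples. The MSC mean was 9.40 ± 0.29 (SD, n = 4). This gave a log2 fold change of -0.41 (standard error 0.17, 95% interval -0.80 to -0.03), which is 1.33-fold higher in NP samples with an interval of 1.02 to 1.74. The unadjusted p from limma was 0.0372, the FDR 0.408, and the exact two-sided permutation p 0.0556.

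The other probe of Tgfbr2, A_64_P129314, was well above background on all 9 arrays but above the filter limit on 3 only. Its log2 intensities were 8.46, 9.33, 8.88, 8.72 and 8.82 in NP replicates 1 to 5 and 8.57, 8.70, 8.45 and 8.68 in MSC replicates 1 to 4. As with the second probe, NP replicate 2 was the highest sample and all 4 MSC samples were below the NP mean, while NP replicate 1 was below 3 of the MSC samples. The difference was -0.24, with an exact permutation p of 0.175. When the filter asked for arrays well above background instead, the probe entered the limma fit with an unadjusted p of 0.141 and an FDR of 0.580. As the 2 probes read the same RNA on the same arrays, they are not independent of each other.

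With any 1 array left out, the log2 fold change of Tgfbr2 stayed between -0.51 and -0.29, while its unadjusted p was 0.05 or above without 6 of the 9 arrays. Without MSC replicate 1, the lowest sample of the second probe, the log2 fold change was -0.29 with an unadjusted p of 0.120 from limma, and without NP replicate 2 it was -0.30 with a p of 0.0684. NP replicate 2 had the highest level of the stromal and pericyte list, at 0.65 against -0.38 to 0.12 in the other NP samples and -0.28 to 0.20 in the MSC samples, and the lowest level of the principal cell list at -0.65, with -0.43 to 0.07 in the other NP samples and 0.01 to 0.53 in the MSC samples. All 5 markers of either list passed the filter. The list of the distal convoluted and connecting tubule, with 4 of its 5 markers past the filter and Pvalb not, was at 0.14, -0.71, -0.60, -0.19 and -0.10 in NP replicates 1 to 5 and at 0.19 to 0.48 in MSC samples. The groups did not overlap in this list, but it includes Calb1, which the paper called higher in MSC kidneys from these arrays. The separation of the groups by this list is thus in part drawn from the same data, here and below. The order of the NP samples was the reverse of that in the second Tgfbr2 probe, and also of that in Tgfbr1, whose log2 fold change was 0.03. In MSC replicates 1 to 4 the list was at 0.48, 0.35, 0.19 and 0.44, which is not the reverse of their Tgfbr2 order. The red blood cell list, with all 4 markers past the filter, was at 0.06 to 0.72 in NP samples, at -2.0 and -0.72 in MSC replicates 1 and 3, the samples with Tgfbr2 below all NP samples, and at 0.38 and 0.31 in MSC replicates 2 and 4. The part of these lists in the Tgfbr2 difference was not tested. Within slide 1 the difference of the second probe was -0.58, and within slide 2 it was -0.24. The first probe had -0.26 and -0.20.

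Tgfbr1, the type I receptor that signals to the SMADs, was read by probe A_64_P045651 at chr5:64033998-64034057 on the plus strand. Its log2 intensities were 10.58, 11.57, 11.40, 11.24 and 11.16 in NP replicates 1 to 5 and 11.17, 11.35, 11.19 and 11.19 in MSC replicates 1 to 4. All MSC samples lay within the NP range, which NP replicate 1 extended at its lower end. The means were 11.19 ± 0.37 (SD, n = 5) and 11.22 ± 0.08 (SD, n = 4), a log2 fold change of 0.03 (standard error 0.17, 95% interval -0.35 to 0.42) with an FDR of 0.959 from limma and an exact permutation p of 0.937. The direction was not stable, since the log2 fold change was -0.12 without NP replicate 1 and -0.01 without MSC replicate 2.

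Among the BMP ligands, Bmp7 had the smallest spread of the 8 tested member probes. Probe A_64_P012061, at chr3:163723705-163723764 on the minus strand, had log2 intensities of 14.51, 14.39, 14.37, 14.29 and 14.52 in NP replicates 1 to 5 and of 14.40, 14.42, 14.33 and 14.34 in MSC replicates 1 to 4. Every MSC sample lay within the NP range and all 4 were at or just below the NP mean of 14.42 ± 0.10 (SD, n = 5). The log2 fold change was -0.05 (standard error 0.07, 95% interval -0.21 to 0.12), with an FDR of 0.841 from limma and an exact permutation p of 0.413. The interval spans 1.16-fold higher in NP to 1.09-fold higher in MSC samples. The pooled SD within the groups, 0.079, was at percentile 5.51 of all probes tested, whose median was 0.174.

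Bmp4, a BMP ligand with roles in kidney and ureter development, varied most among the 8 tested member probes. The log2 intensities of the probe shown above were 12.03, 12.51, 12.15, 13.06 and 12.86 in NP replicates 1 to 5 and 12.19, 11.86, 12.96 and 12.57 in MSC replicates 1 to 4. The highest sample was 2.04-fold above the lowest in NP and 2.15-fold in MSC kidneys. Between the groups the log2 fold change was -0.13 (standard error 0.26, 95% interval -0.72 to 0.46), with an FDR of 0.882 from limma and an exact permutation p of 0.683. The pooled SD of 0.458 was at percentile 93.2 of all probes.

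The spread of Bmp4 followed the slides. The 5 arrays of slide 1 lay between 11.86 and 12.51 and the 4 arrays of slide 2 between 12.57 and 13.06, without overlap and for NP and MSC samples alike. With group and slide in 1 limma model, slide 2 was higher by 0.74 on the log2 scale (standard error 0.13) or 1.67-fold, at an unadjusted p of 0.000395 and an FDR of 0.0738. This comparison was chosen after the values had been seen. At an unadjusted p under 0.05 this made 1 of 8 member probes higher on slide 2, against 7.1% of all probes (6.64% were lower), and at an FDR under 0.05 none, against 0.0695% (0.0253% lower). Of all probes, 3.29% had every array of slide 2 above every array of slide 1, and 3.06% the opposite. Bmp4 was the only one of the 8 tested member probes that separated the slides, and for the other 7 the difference between slides ranged from -0.05 for Bmp7 to 0.25 for Tgfb3, with FDR values from 0.399 upwards.

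Other lists also had levels that did not overlap between the slides. The level of the immediate early response list, with all of its 6 genes past the filter, was -1.06 to 0.28 on slide 1 and 0.32 to 0.82 on slide 2. The proximal tubule list was at -0.20 to 0.06 on slide 1 and at 0.07 to 0.17 on slide 2. Their part in the Bmp4 values was not tested. The labels do not say whether kidneys of a slide were operated, extracted or labelled together. Within slide 1 the Bmp4 difference of MSC minus NP was -0.21 and within slide 2 it was -0.20, and a limma fit that had the slide as a block gave -0.20 (standard error 0.13, unadjusted p 0.164, FDR 0.557).

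**Figure D2:**
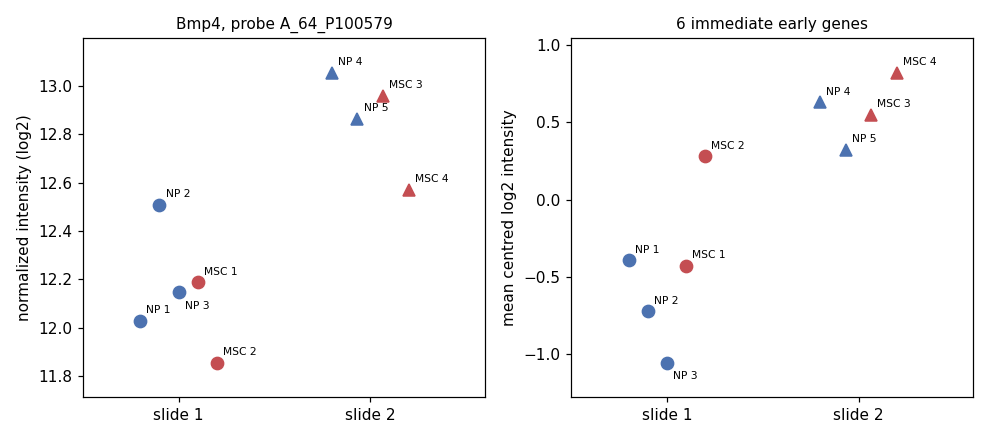
The left panel plots the normalized log2 intensity of Bmp4 and the right panel the mean centred log2 intensity of the 6 immediate early genes on each array, by slide, with NP in blue, MSC in red, circles for slide 1 and triangles for slide 2. In both panels the 4 arrays of slide 2 lie above the 5 arrays of slide 1, with Bmp4 at 12.57 to 13.06 against 11.86 to 12.51.

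Bmp2, a close paralogue of Bmp4, did not share this pattern. Its log2 intensities were 9.40, 10.30, 9.47, 9.87 and 9.79 in NP replicates 1 to 5 and 9.71, 9.64, 9.82 and 9.58 in MSC replicates 1 to 4. The MSC samples lay close together inside the NP range, and NP replicate 2 was the highest sample, as for Tgfbr2 and Tgfbr1. The means were 9.76 ± 0.36 (SD, n = 5) and 9.69 ± 0.10 (SD, n = 4). MSC minus NP gave a log2 fold change of -0.08 (standard error 0.17, 95% interval -0.45 to 0.30), with an FDR of 0.890 from limma and an exact permutation p of 0.754. Without NP replicate 2 it was 0.06.

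Bmp6, a ligand best known for its role in iron balance through hepcidin, was below the filter limit on all 9 arrays. Its probe A_44_P250030 was well above background on 2 NP and 2 MSC arrays, with log2 intensities of 8.19, 8.25, 8.10, 8.20 and 8.33 in NP replicates 1 to 5 and of 8.27, 8.18, 8.43 and 8.09 in MSC replicates 1 to 4. The highest and the lowest sample were both MSC samples. Without the filter the difference was 0.03 (standard error 0.07, FDR 0.946 from limma).

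Smad7, the inhibitory SMAD, had the smallest p after Tgfbr2. Probe A_43_P15390, at chr18:72323004-72323062 on the plus strand, had log2 intensities of 12.86, 12.89, 13.04, 13.20 and 12.93 in NP replicates 1 to 5 and of 12.81, 12.72, 12.92 and 12.91 in MSC replicates 1 to 4. All 4 MSC samples were below the NP mean of 12.99 ± 0.14 (SD, n = 5) and MSC replicates 1 and 2 were below all NP samples, while the other 2 lay within the NP range. The MSC mean was 12.84 ± 0.09 (SD, n = 4). Smad7 thus had a log2 fold change of -0.15 (standard error 0.09, 95% interval -0.35 to 0.06), 1.11-fold higher in NP samples with an interval from 0.962 to 1.27. The unadjusted p from limma was 0.138, the FDR 0.549 and the exact permutation p 0.135. The slides gave similar differences, -0.17 within slide 1 and -0.15 within slide 2. Without NP replicate 4, the highest sample, the log2 fold change was -0.09.

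**Figure D3:**
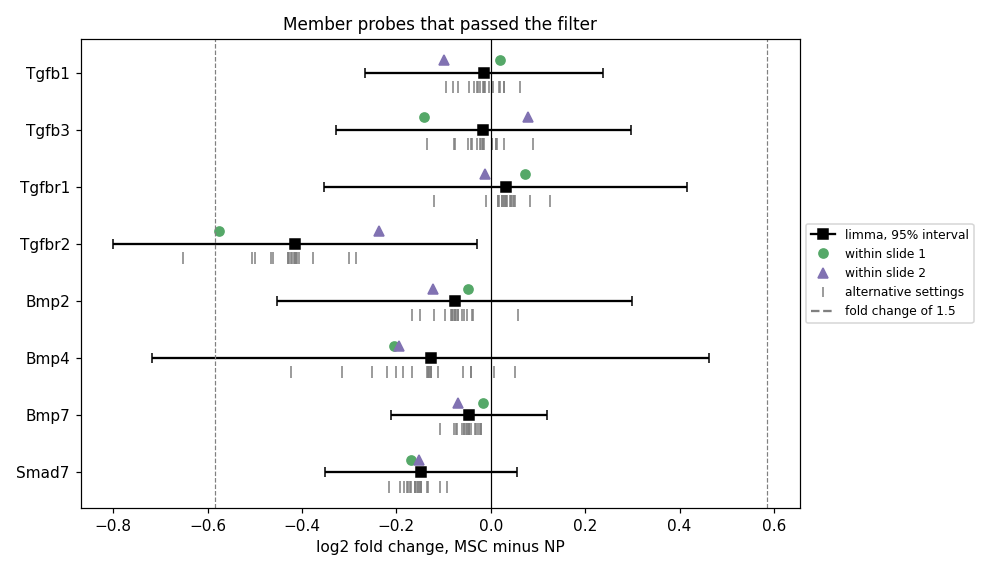
The plot shows for each member probe that passed the filter the log2 fold change of MSC over NP with its 95% interval from limma (black squares and bars), the difference within slide 1 (green circles) and slide 2 (purple triangles), and the value under each of the 21 alternative settings (grey ticks), with dashed lines at a fold change of 1.5. The interval of Tgfbr2, from -0.80 to -0.03, is the only one that leaves out 0, and those of Tgfbr2 and Bmp4 reach past a fold change of 1.5 towards lower values in MSC samples.

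The wider pathway was described with 8 lists of 93 genes, of which 90 were on the array and 59 passed the filter, each read by its probe with the highest mean. None was called. At an unadjusted limma p under 0.05, 7 genes were higher and 3 lower in MSC samples (16.9% of the 59, against 11.6% of all probes), and the median log2 fold change was -0.02, with 28 genes above 0 and 31 below. The smallest FDR among them was 0.334.

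Upstream of the members, the latent TGF-beta binding proteins Ltbp3 and Ltbp2, matrix proteins of the family that stores latent TGF-beta, had higher values in MSC samples, by the unadjusted p only, for which they were picked. Ltbp3 was at 10.07, 10.17, 9.83, 10.01 and 10.18 in NP replicates 1 to 5 and at 10.33, 10.25, 10.52 and 10.62 in MSC replicates 1 to 4. Ltbp2 was at 8.88, 8.96, 8.85, 8.90 and 8.76 in NP and at 9.40, 9.03, 9.07 and 9.31 in MSC samples. In both every MSC sample was above every NP sample, as in 3.11% of all probes. The marker list of the distal convoluted and connecting tubule separated the groups in the same way (NP -0.71 to 0.14, MSC 0.19 to 0.48). It includes Calb1, which the paper called higher in MSC kidneys from these arrays. The part of this list in the Ltbp3 and Ltbp2 values was not tested. The log2 fold changes were 0.38 and 0.34 (standard errors 0.11 and 0.09), each with an FDR of 0.334 from limma and the smallest exact permutation p that 9 arrays allow, 0.00794. Of the 10 genes of the latency and activation list on the array, 8 passed the filter, these 2 were higher at the unadjusted p and 0 lower, with a list median of -0.01. Furin, the protease that cleaves the proligand, had a log2 fold change of -0.22 (unadjusted p 0.0653).

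Around the member receptors, 8 of the 12 other receptors and co-receptors on the array passed the filter, with a median of -0.18, and 1 was lower at the unadjusted p. This was Acvr2b, a type II receptor for activins, with 10.56, 11.77, 11.29, 11.03 and 10.97 in NP and 10.30, 10.50, 10.59 and 10.65 in MSC samples. Its log2 fold change was -0.62 (standard error 0.21, FDR 0.335 from limma), and NP replicate 1, at 10.56, was below 2 of the MSC samples. The NP samples had the reverse order in the list of the distal convoluted and connecting tubule (NP -0.71 to 0.14, MSC 0.19 to 0.48) and in the principal cell list (NP -0.65 to 0.07, MSC 0.01 to 0.53). The MSC samples did not have the reverse order in either list. The part of these lists in the Acvr2b value was not tested. Eng, the co-receptor endoglin, which is also in the marker list of cultured mesenchymal stromal cells, had a log2 fold change of 0.49 and Acvrl1, the endothelial type I receptor ALK1, one of -0.21, with unadjusted p-values of 0.0779 and 0.282 from limma. The endothelium list, with 5 of its 6 markers past the filter, was at -0.40 to 0.22 in NP and at -0.31 to 0.30 in MSC samples. Its MSC samples had the order of Eng but its NP samples did not, and its part in these values was not tested. Bmpr1a, a type I receptor for BMPs, had 0.08 (p 0.420 from limma). Of the other ligands 5 of 15 passed, with a median of -0.08 and 0 genes at the unadjusted p in either direction, and log2 fold changes of 0.19 for Gdf15, -0.17 for Inhbb, -0.08 for Inha and -0.28 for Bmp3.

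Among the intracellular and membrane inhibitors, the group to which Smad7 belongs by its role, all 9 listed genes passed the filter and all 9 were below 0, with a median of -0.16 and a range from -0.65 to -0.06. Over all probes the median was 0.00 (-0.00484), with 51.2% below 0. Only Pmepa1, a membrane protein that sequesters receptor SMADs, was lower at the unadjusted p. It was at 14.65, 15.53, 15.55, 14.62 and 14.64 in NP and at 14.79, 14.42, 14.05 and 14.15 in MSC samples, so that NP replicates 2 and 3 stood above the other 7 samples. The same 2 samples had the lowest levels of all 9 in the lists of the distal convoluted and connecting tubule (-0.71 and -0.60), the principal cell (-0.65 and -0.43) and the intercalated cell (-0.67 and -0.41). The part of these lists in the Pmepa1 value was not tested. MSC samples were lower by a log2 fold change of -0.65 (standard error 0.25, unadjusted p 0.0275, FDR 0.387 from limma, exact permutation p 0.0873). Bambi, a decoy receptor, had -0.29, Smurf1, a ubiquitin ligase, -0.18, and Strap, a partner of Smad7 at the receptor, -0.10. Of the other SMADs 4 of the 6 on the array passed, with a median of -0.18 and 0 at the unadjusted p, and log2 fold changes of -0.44 for Smad1, 0.26 for Smad2 and -0.14 for Smad4.

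The extracellular antagonists and modulators had 10 of 16 genes past the filter, with a median of 0.09, 2 genes higher at the unadjusted p and 0 lower. Grem1, the BMP antagonist gremlin, was at 13.14, 12.93, 12.95, 12.99 and 13.11 in NP and at 13.68, 13.11, 13.26 and 13.51 in MSC samples, 0.36 higher in MSC samples on the log2 scale (standard error 0.12, limma FDR 0.334). Sostdc1, which encodes an antagonist of BMP7 in the tubule also called USAG-1, was at 15.44, 13.81, 13.94, 14.59 and 14.71 in NP and at 15.07, 14.84, 15.18 and 15.81 in MSC samples. Its log2 fold change was 0.73 (standard error 0.32, unadjusted p 0.0480 and FDR 0.425 from limma). In both genes NP replicate 1 was the highest NP sample and lay above at least 1 MSC sample. Marker lists of the distal nephron are given beside Grem1 and Sostdc1. In the list of the distal convoluted and connecting tubule (NP -0.71 to 0.14, MSC 0.19 to 0.48) the NP samples had the same order as in both genes. The MSC samples had the order of neither gene. The intercalated cell list, with all 5 markers past the filter, was at -0.67 to 0.21 in NP and at 0.14 to 0.59 in MSC samples. Its NP samples had the order of both genes, and its MSC samples that of Sostdc1 but not of Grem1. Their part in the values of Grem1 and Sostdc1 was not tested. Chrd, the BMP antagonist chordin, had -0.21, and Bgn, the matrix proteoglycan biglycan, 0.08.

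Downstream, the TGF-beta target list had 12 of 14 genes past the filter, with a median of 0.38 against 0.00 (-0.00484) over all probes, and 3 genes were higher and 1 lower at the unadjusted p. Col1a1, the alpha 1 chain of collagen I, was at 11.11, 12.61, 11.60, 11.72 and 11.64 in NP replicates 1 to 5 and at 12.83, 12.22, 12.83 and 13.31 in MSC replicates 1 to 4. The groups overlapped through NP replicate 2, which was above MSC replicate 2. On the log2 scale MSC samples were higher by 1.06 (standard error 0.29), which is 2.08-fold, with an unadjusted p of 0.00452 and an FDR of 0.334 from limma. Timp1, an inhibitor of matrix proteases, had 0.49 (p 0.0207), while Tgfbi, a matrix protein induced by TGF-beta, had -0.29 (p 0.0108). Junb, an immediate early transcription factor, had 0.42 (p 0.219). The immediate early response list was at -1.06 to 0.63 in NP and at -0.43 to 0.82 in MSC samples, with the samples in the same order as in Junb. The part of this list in the target gene values was not tested.

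Levels of marker lists are given beside the collagen gene. The perirenal fat list, with 4 of its 6 markers past the filter and Plin1 and Lep not, had levels of 2.37 and 1.45 in MSC replicates 3 and 4 and of -1.01 to 0.13 in the other 7 samples. The list for cultured mesenchymal stromal cells, without Thy1 and Itga5, which did not pass, was at -0.46 to 0.25 in NP and at -0.11 to 0.35 in MSC samples, and the stromal and pericyte list at -0.38 to 0.65 and -0.28 to 0.20. The distal convoluted and connecting tubule markers were at -0.71 to 0.14 in NP and at 0.19 to 0.48 in MSC samples. Their part in the target gene values was not tested. The BMP targets had 3 of 8 genes past the filter, with a median of 0.01 and 0 at the unadjusted p, and Id1, Id2 and Id4, inhibitors of DNA binding induced by BMPs, had log2 fold changes of -0.13, 0.02 and 0.01.

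**Figure D4:**
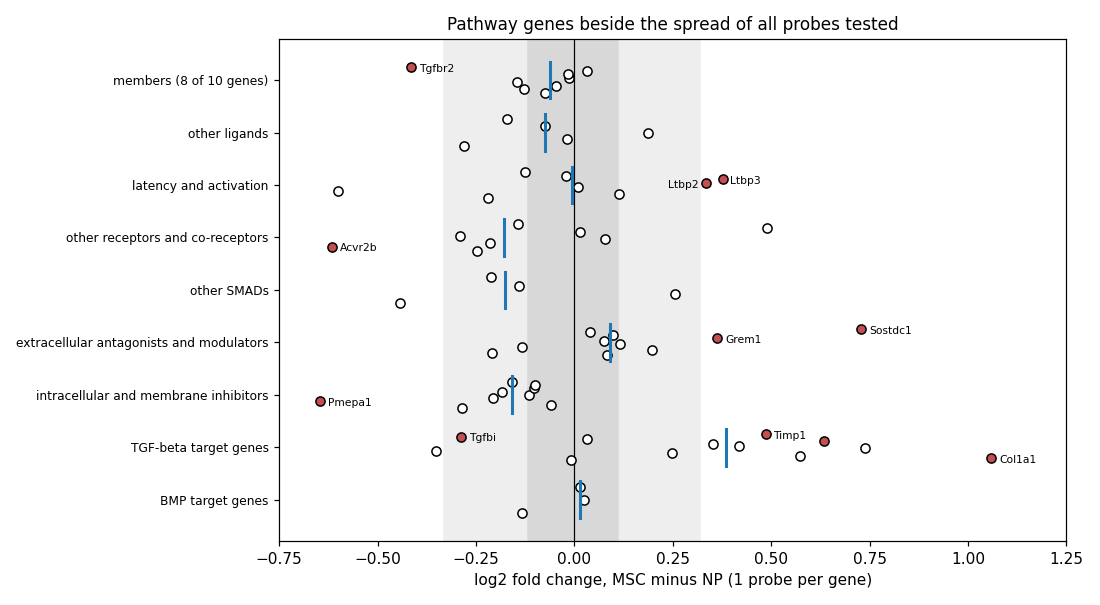
The plot shows the log2 fold change of MSC over NP for the 8 member genes and the 59 pathway genes that passed the filter, 1 probe per gene, with genes at an unadjusted p under 0.05 in red, and named where among the 3 smallest p of their list, the median of each list as a blue line, and grey bands for the middle 50% and 90% of all 15838 probes tested. The median of the TGF-beta target list is at 0.38 and that of the members at -0.06, and Tgfbr2 at -0.41 is the only member outside the outer band, which runs from -0.33 to 0.32.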

How the data were processed

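Each array measured total RNA of 1 kidney. The authors deposited the raw output of Agilent Feature Extraction 10.7.3.1, in which the intensity of each spot is not background subtracted, and a table of normalized log2 values, which was used as an alternative. The log2 mean intensity of gene spots without outlier flags (273 to 593 flagged per array) was normalized here by cyclic loess as in the paper's methods, and correlated with the deposited column of its array at Pearson's r between 0.99987 and 0.99997 (30367 probes). Without background subtraction, fold changes of dim probes are understated. The deposited medians were 8.75 to 8.92. A probe was kept if at least 4 arrays had it over a limit of 1.1 times the negative controls' 95th percentile, both in log2, which is 1 reading of the methods' filter. Spots of a probe were averaged, and probes were the unit of the test.

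MSC and NP arrays were compared with limma 3.58.1 in R 4.3.3, with Benjamini-Hochberg FDR over 15838 probes and calls at a fold change over 1.5 and an FDR under 0.05. Exact permutation tests used all 126 splits of the 9 arrays and are unadjusted. The steps were tested on simulated data. The members and all gene lists were chosen with earlier results of these data known. Named are all member probes and, from each pathway list, the 3 genes with the smallest p and the one with the highest mean. The remaining gene at an unadjusted p under 0.05 is counted but not reported here. Of the 13 member probes, the accession of 12 was found in a current RefSeq table (GRCr8) under the same symbol. Positions are those of the files on rn4. The labels do not pair the samples. The 21 alternatives used other intensity columns, normalizations, filters, blocks and weights, or left out 1 array. The MSC array discarded by the authors was not analysed here, and 0 columns of sample values were left unused. The number of arrays limits the precision.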

Additional observations from a re-analysis of the deposited data

Results flagged for a closer look

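The distance of the highest or lowest sample to the next one, as a share of its group's range (Dixon's ratio), was taken in 102 groups for tested member probes, named pathway genes and marker lists, and 3 passed the critical value where chance gives about 1 in 20, here 5.1. MSC replicate 2 passed it for Tgfbr1 (ratio 0.854), at a log2 intensity of 11.35 against 11.19 for the nearest MSC sample, and from the other side for Bgn (ratio 0.905), at 15.78 against 16.52. MSC replicate 3 passed it for the tubule injury list (ratio 0.893), at -0.11 against 0.17. No sample was removed for this. Without MSC replicate 2 the log2 fold change of Tgfbr1 was -0.01.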

How the results depend on the processing

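With 5 and 4 arrays only large or uniform differences could pass the threshold, and the 95% intervals of the 8 tested member probes reach to differences of 1.16-fold for Bmp7 and up to 1.74-fold for Tgfbr2. The 21 alternatives gave 0 member probes and 0 pathway genes past the threshold. Over all probes, array weights gave 2 called higher where limma without weights gave 0. Member probes lower at an unadjusted p under 0.05 numbered 1 with limma, 0 with 75th percentile scaling, 2 with array weights (Tgfbr2 and Smad7, p 0.0121 and 0.0303) and 0 to 1 when each array was left out. Tgfbr2 passed this p in 14 of 21 alternatives, and did not without NP replicate 2, 3, 4 or 5, MSC replicate 1 or 3, or with 75th percentile scaling, with p from 0.0522 to 0.152. Its log2 fold change ranged from -0.65 with the processed signal to -0.29 without MSC replicate 1, and its FDR from 0.195 to 0.807. Pathway genes lower at this p numbered 3 with limma, 7 with the slide as a block and 2 to 7 with arrays left out (7 without NP replicate 1, 6 without NP replicate 5 and 5 without MSC replicate 2).

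The direction of Tgfb1 turned to 0.0176 and that of Tgfb3 to 0.0138 with 75th percentile scaling. With arrays left out, the log2 fold change ranged from -0.0801 to 0.0622 for Tgfb1, from -0.136 to 0.0889 for Tgfb3, from -0.167 to 0.0580 for Bmp2, from -0.121 to 0.126 for Tgfbr1 and from -0.316 to 0.0519 for Bmp4. Bmp4 was above 0 only without NP replicate 4 (0.00628) or MSC replicate 2, and array weights gave it -0.42. Bmp7, Smad7 and Tgfbr2 kept their direction in all 21 alternatives. Their size moved, for Tgfbr2 over the range above, for Smad7 from -0.09 without NP replicate 4 to -0.21 with array weights, and for Bmp7 from -0.02 without NP replicate 1 or 5 to -0.11 with median scaling. Of all probes at an unadjusted p under 0.05, 1028 were higher and 812 lower (44.1% lower), against 341 and 628 (64.8%) with median scaling and 1155 and 1441 (55.5%) without NP replicate 1. The median over all probes stayed between -0.03 and 0.00 (-0.0349 and 0.00469). The causes were not tested.

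The replicate numbers of the titles were tried as a replicate block. Samples with the same number had correlations of 0.20, 0.32, -0.35 and 0.05 between their deviations from the group means. The NP sample with the highest correlation had the same number for MSC replicates 1 and 2, but not for 3 and 4. Samples numbered 1 or 2 also shared slide 1, and those numbered 4 shared slide 2. These values therefore cannot tell a pairing from a shared slide. With this block Tgfb1 had 0.0273 and Tgfb3 0.0110, and 5 pathway genes were lower at the unadjusted p. For Tgfbr2 the value was -0.43, and no call changed.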
